A study of Mus musculus with 16 samples.

Results

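Id proteins and E proteins were followed in 6 sorted mouse lymphocyte populations through every probe set that the platform annotation gives to Id1, Id2, Id3, Tcf3, Tcf4 or Tcf12. Each of the 6 genes had 1 probe set, so 6 of the 12422 probe sets tested were members, or 6 of the 8251 genes named by a probe set with 1 symbol. The rule picks probe sets by gene name, but the members were chosen with earlier results of these data known. E proteins are helix-loop-helix transcription factors that pair with each other or with related factors and bind short DNA motifs called E-boxes. Id proteins carry the same pairing domain without the basic stretch that contacts DNA, so an E protein bound by an Id protein cannot bind its site. In lymphocytes, E proteins are required for B cell commitment and for the early steps of T cell development, while Id2 and Id3 restrain them in natural killer cells, innate lymphoid cells and T cells that have received antigen receptor signals.

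The series set 3 innate-like populations beside 3 adaptive ones. NKT cells (CD3+CD4+NK1.1+, n = 3) came from spleens of wild type C57BL/6 mice and were set beside CD4T cells, splenic C57BL/6 T cells with CD3 and CD4 and without NK1.1 (n = 3). CD8aaT cells (TCRb+CD8a+CD8b-, n = 3) came from RTOC, a culture named in the labels by this abbreviation, given the agonist Smcy at a high dose that the labels write as 10 mM. CD8abT cells (TCRb+CD8a+CD8b+, n = 3) came from RTOC given Smcy at a low dose of 100 nM, so dose and coreceptor gate cannot be told apart in this pair. B1 cells (IgM high, IgD intermediate, CD11b+, n = 2) came from the peritoneum of C57BL/6 mice and B2 cells (IgM intermediate, IgD high, CD11b-, n = 2) from C57BL/6 spleen, so tissue and cell type cannot be told apart there. The labels give neither the strain of the RTOC cells nor the ages of the mice.

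Values are RMA intensities, the brightness of a probe set after the authors' background correction, normalization and summary, and differences are innate-like minus adaptive on their log2 scale with the SE of the fit, which has no replicate block, also where a blocked p-value is given. A difference was called where limma's p-value, adjusted by Benjamini-Hochberg over 12422 probe sets, was under 0.05. Array medians were 49.9 to 53.3 in NKT and 49.6 to 54.1 in CD4T, 30.4 to 31.8 in CD8aaT and 30.9 to 31.9 in CD8abT, and 69.2 to 75.6 in B1 and 73.7 to 76.1 in B2. Levels are therefore set across pairs only as a description, by the rank of a probe set among the 12422 on its own array. A high ratio of signal at the 3′ end of beta-actin over that at its 5′ end is a sign of RNA shortening or of incomplete amplification, and it was 5.80, 5.76 and 5.15 in CD8aaT and 6.57, 11.6 and 7.92 in CD8abT, with no overlap. The same ratio for Gapdh was 20.9, 17.6 and 7.37 in CD8aaT and 24.0, 30.4 and 9.47 in CD8abT, with overlap. Replicate 1 of NKT and of CD4T stood apart, since the SD over all probe sets of the log2 difference between 2 arrays was 0.126 in NKT and 0.162 in CD4T for replicates 2 and 3, against 0.383 to 0.634 with replicate 1. The beta-actin ratio of replicate 1 was 5.34 in NKT and 7.02 in CD4T, against 3.56 and 3.72 in NKT and 3.59 and 3.71 in CD4T for replicates 2 and 3. The 18S ribosomal RNA control signal of replicate 1 was 1326 in CD4T, 675 in NKT, 877 in B2 and 776 in B1. Other replicates of these groups were at 33.4 to 62.6. In the cells from RTOC it was 66.5, 273 and 249 in CD8aaT, against 129, 857 and 716 in CD8abT. Its part in the differences was not tested. As a check of the labels, summed intensities of 10 B cell markers were 27557 to 27863 in B1 and 29751 to 30845 in B2, while no T cell array exceeded 4571. Itgam, the gene of CD11b in the B1 gate, was dim, at log2 5.37 in B1 and 5.36 in B2. In bulk samples, fewer cells that express a gene and less RNA per cell cannot be told apart. The number of arrays limits the precision.

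Id2 was the member with the largest differences. It was 6.04-fold higher in NKT cells than in CD4T cells (2.60 ± 0.36, adjusted p = 0.0010) and 3.91-fold higher in CD8aaT cells than in CD8abT cells (1.97 ± 0.36, adjusted p = 0.049), and it was low in both B cell groups. Id3 had negative differences in all 3 pairs (-0.79 ± 0.20, -0.26 ± 0.20 and -0.97 ± 0.24) and Tcf4, an E protein gene, positive ones (0.60 ± 0.18, 0.53 ± 0.18 and 0.45 ± 0.23). Both were called in the average of the pairs and in no single pair by this fit. Id1, Tcf3 and Tcf12 were not called in any pair.

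Id2, on chromosome 12 (GRCm38.p6, chr12:25093799-25096092, minus strand), is needed for natural killer cells and innate lymphoid cells and supports effector T cells. Id3, on chromosome 4 (chr4:136143822-136145392, plus strand), is induced by antigen receptor signals in thymocytes. The 250 bases upstream of the annotated starts of both genes are shown because their differences had opposite signs in both T cell pairs. They are from RefSeq, GRCm38.p6, at chr12:25096093-25096342 for Id2 and chr4:136143572-136143821 for Id3, read 5′ to 3′ on the strand of the gene, and capitals mark the single match to the E-box letters CANNTG.
Id2: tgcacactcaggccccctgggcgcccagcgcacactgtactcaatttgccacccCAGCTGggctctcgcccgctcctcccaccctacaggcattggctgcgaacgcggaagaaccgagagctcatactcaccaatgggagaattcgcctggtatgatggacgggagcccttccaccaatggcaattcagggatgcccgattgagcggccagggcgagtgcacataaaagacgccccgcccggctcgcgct
Id3: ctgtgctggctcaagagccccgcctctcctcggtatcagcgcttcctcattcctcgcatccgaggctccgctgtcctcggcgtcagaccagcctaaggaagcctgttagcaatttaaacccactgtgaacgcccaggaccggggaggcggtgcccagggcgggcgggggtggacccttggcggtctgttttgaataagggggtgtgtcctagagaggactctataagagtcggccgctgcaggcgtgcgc
The Id2 sequence held 1 E-box match, CAGCTG, starting 196 bases before the start of the gene. Letters CAGCTG were present in 13.0% and CANNTG in 66.2% of 32851 upstream sequences of this length. The Id2 sequence also held 3 matches to CCAAT on either strand, starting 159, 120 and 76 bases before the gene, where 33.8% of all sequences held at least 1 and 10.1% held 2 or more. None of these letters, nor GCGNGGGCG, the letters searched for EGR factors (present in 4.70% of sequences), were found in the 250 bases of Id3. All motifs were searched on both strands, the 6-base E-box being a case of CANNTG. These matches describe letters only.

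Id2 intensities were 3343, 2171 and 2572 in the 3 NKT samples, against 433, 440 and 443 in the 3 CD4T samples. The groups did not overlap, and the lowest NKT value lay far above the highest CD4T value. Of the 6 members, 1 was called in this pair, Id2, where 1.63% of all probe sets were called. Its difference was the 25th largest in size of 12422, with a 95% confidence interval of 1.82 to 3.37, and it was called in 25 of 25 alternative settings (2.42 to 2.76). Same-numbered samples differed by 2.95, 2.30 and 2.54, and without replicate 1 of every group the difference was 2.42 (adjusted p = 0.045).

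In the cells from RTOC, Id2 intensities were 227, 283 and 419 in CD8aaT, against 52.5, 52.1 and 165 in CD8abT. All CD8aaT values were above all CD8abT values, while CD8abT replicate 3 lay well above the other two CD8abT samples. Id2 was the 1 member called in this pair, where 0.185% of all probe sets were called, and its difference was the 10th largest in size, with a 95% confidence interval of 1.19 to 2.74. The call was close to the threshold and was kept in 6 of 25 alternative settings, in which the difference stayed between 1.57 and 2.52. A block for the replicate number gave an adjusted p of 0.00070 and 2 called members (Id2 and Tcf4, where 3.2% of all probe sets were called). Without CD8abT replicate 3 the difference was 2.52 (adjusted p = 0.00021), and with the beta-actin ratio as a covariate it was 1.96 (adjusted p = 0.30). With only the arrays of this pair in the fit it was 1.97 (adjusted p = 0.61). Leaving out any 1 array other than CD4T replicate 1 or CD8abT replicate 3 ended the call. Same-numbered samples differed by 2.12, 2.44 and 1.35.

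Between the B cell groups Id2 was not called. It measured 47.3 and 44.2 in B1, against 60.1 and 47.3 in B2, and a probe set at such levels ranked below the middle of its array (36.5% in B1 and 39.7% in B2 on average). The difference was -0.22 ± 0.44, with a 95% confidence interval of -1.17 to 0.72, and no member was called by limma in this pair, where 1.14% of all probe sets were. Id3 alone had an unadjusted p under 0.05 there. The difference of Id2 in the NKT pair exceeded that in the B cell pair by 2.82 ± 0.57 (adjusted p = 0.020), a contrast in which 1.35% of probe sets were called and no other member was. The CD8 pair exceeded the B cell pair by 2.19 ± 0.57 (adjusted p = 0.16), where 0.733% of probe sets were called. A block for the number gave an adjusted p of 0.0025 there, with 2.21% called, though a pairing of the B cell arrays by number was not established. Between the NKT and CD8 pairs Id2 differed by 0.63 ± 0.51, not called, with a 95% confidence interval of -0.46 to 1.72, where 0.692% were called.

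**Figure D1:**
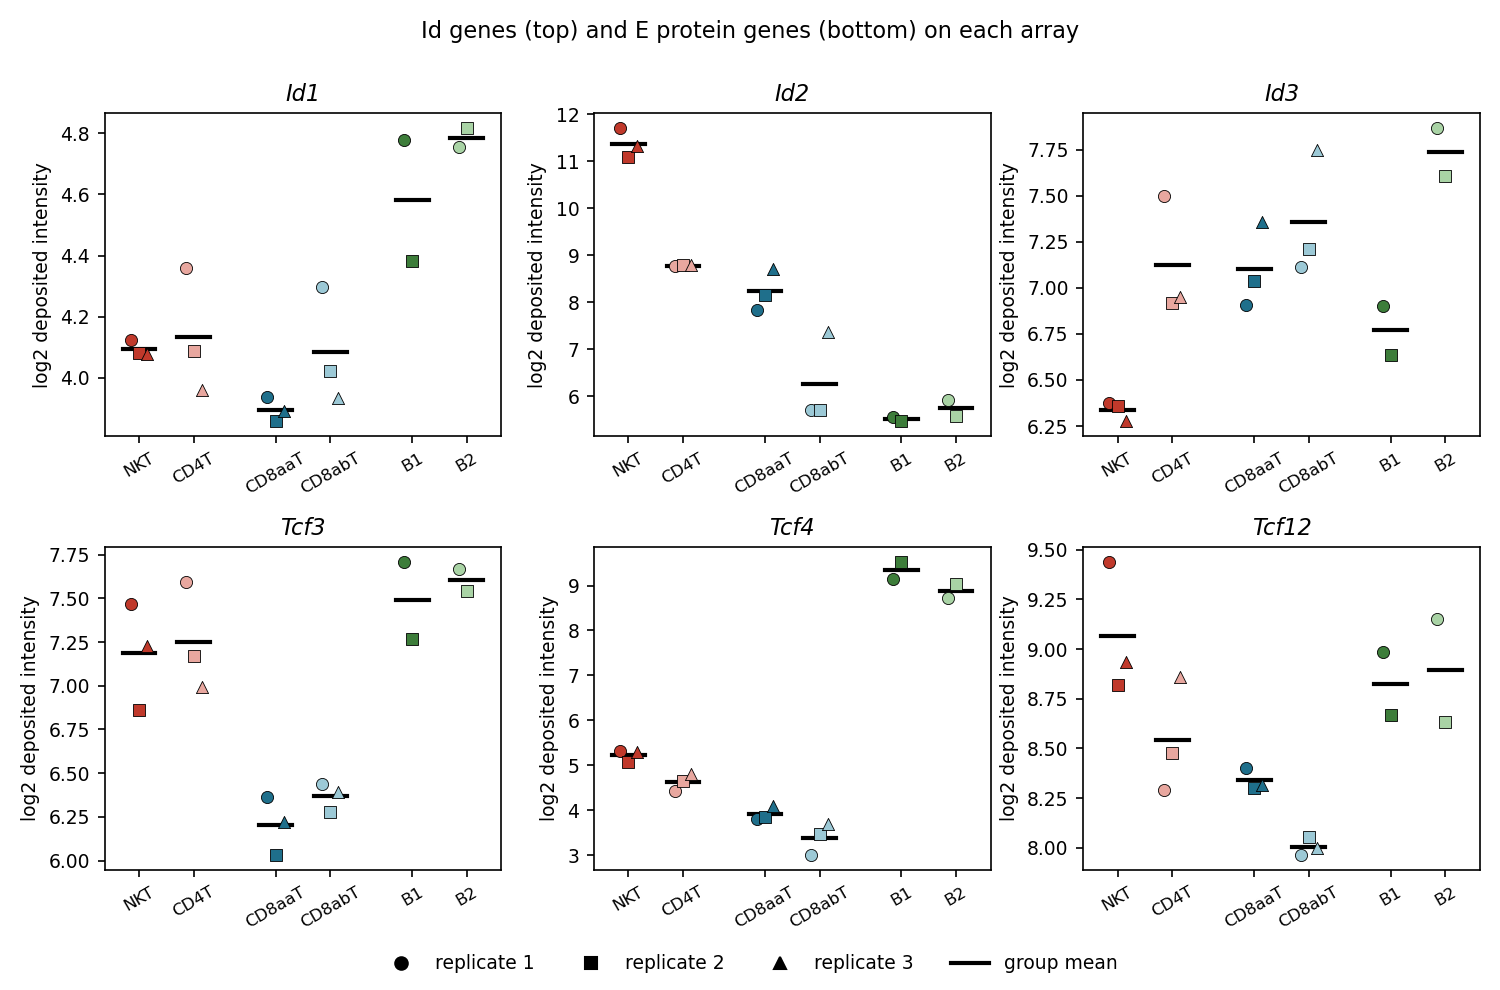
Log2 deposited intensity of the 3 Id genes (top row) and the 3 E protein genes (bottom row) on each of the 16 arrays, by group; symbols give the replicate number and bars the group mean. Id2 is highest in NKT (mean 11.37) and lowest in B1 (5.51), Id3 is lower in NKT than CD4T and in B1 than B2 with no overlap, and Tcf4 is highest in both B cell groups; axes do not start at 0 and differ between genes.

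Other cell types that use Id2, among them natural killer cells and dendritic cells, were followed through marker lists. Of 5 natural killer markers measured, 4 were higher in NKT cells, whose gate includes such a receptor: Klrd1, Klrk1, Tyrobp and Klra3. Their summed intensity with Ncr1 was 941 to 1510 in NKT and 198 to 275 in CD4T, and Ncr1, a receptor of natural killer cells, ranked at only 10.0% in NKT. In the CD8 pair 1 of the 5 was called, Klrd1 (2.20 ± 0.37, adjusted p = 0.031), with sums of 656 to 991 in CD8aaT and 135 to 347 in CD8abT, and the block added Tyrobp (1.10 ± 0.36, adjusted p = 0.0029). Of 7 dendritic cell markers none was called in either T cell pair, with sums of 881 to 1085 in NKT and 734 to 875 in CD4T, and of 404 to 490 in CD8aaT and 373 to 468 in CD8abT. With a block for the number, Irf8, a factor of dendritic and B cells, was higher in NKT (1.05 ± 0.34, adjusted p = 0.00037), and Batf3, a dendritic cell factor that T cells also use, was higher in CD8aaT (0.68 ± 0.24, adjusted p = 0.036). Of 11 macrophage markers 2 were higher in NKT cells, Csf1r (0.60 ± 0.13, adjusted p = 0.039) and Lyz2 (2.08 ± 0.35, adjusted p = 0.0047), with sums of 626 to 803 in NKT and 466 to 660 in CD4T. Of 10 B cell markers 3 were higher in NKT cells (Cd72, H2-Aa and H2-Ab1), with sums of 2932 to 4571 in NKT and 2038 to 3036 in CD4T. In the CD8 pair none of the 11 macrophage or 10 B cell markers was called, except that the block called Lyz2 lower (-0.71 ± 0.35, adjusted p = 0.049). All 9 markers of T cells measured lay below 0 in CD8aaT (median -0.28), with sums of 2842 to 5190 in CD8aaT and 3516 to 6785 in CD8abT. None of them was called without the block, and 4 were lower with it (Cd2, Cd5, Cd6 and Thy1, differences of -1.22, -0.92, -0.66 and -0.91). In the NKT pair the 9 had a median of 0.07, and the block called Zap70 higher (0.64) and Cd5 lower (-0.95). The counts of 0 are limma's without the block, and at an unadjusted p under 0.05 there were 2 and 1 dendritic cell markers in the NKT and CD8 pairs, 1 macrophage and 1 B cell marker in the CD8 pair, and 2 and 4 T cell markers in the NKT and CD8 pairs. In the B cell pair Lyz2 was higher in B1 (2.29 ± 0.43, adjusted p = 0.013). The dendritic cell list had Ccr6 and Irf8 lower, with sums of 1074 to 1398 in B1 and 3713 to 4174 in B2. Ccr6 and Irf8 ranked at 98.8% and 98.1% in B2, and the other markers of that list lay at -0.17 to -0.10, not called. Of the 10 B cell markers, Cd72 (-4.05 ± 0.46, adjusted p = 0.00024) and Cd22 (-0.87 ± 0.17, adjusted p = 0.016) were lower in B1. The part of these transcripts in the differences of the 6 genes was not tested.

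Id3 was lower in NKT cells than in CD4T cells by a fold of 1.72, on intensities of 83.0, 82.0 and 77.5 in NKT against 181, 121 and 124 in CD4T. The 3 NKT values lay close together and below all CD4T values, of which replicate 1 was the highest. The difference of -0.79 ± 0.20 was not called (adjusted p = 0.074) and was called once the number was a block (adjusted p = 0.0025). That fit called 3 of 6 members in this pair (Id2, Id3 and Tcf4), where 4.84% of all probe sets were called. Same-numbered samples differed by -1.12, -0.56 and -0.67, and without replicate 1 of every group the difference was -0.62 (adjusted p = 0.20).

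In the other two pairs Id3 again had the lower mean in the innate-like population. It measured 120, 131 and 164 in CD8aaT, against 139, 148 and 215 in CD8abT. These groups overlapped and the difference was -0.26 ± 0.20, not called, with a 95% confidence interval of -0.68 to 0.17. In B cells it measured 120 and 99.4 in B1, against 233 and 195 in B2, and both B1 values were below both B2 values. That difference was -0.97 ± 0.24, a 1.96-fold lower level in B1, and was not called (adjusted p = 0.097). Averaged over the 3 pairs, Id3 was lower by a called difference of -0.67 ± 0.12 (adjusted p = 0.0097), and Id2 (1.45 ± 0.22, adjusted p = 0.0027) and Tcf4 (0.53 ± 0.11, adjusted p = 0.032) were higher. Those were 3 of 6 members, where 1.61% of all probe sets were called in the average. Without B2 replicate 1, without B1 replicate 2, or without replicate 1 of every group the average for Id3 was not called, with adjusted p-values of 0.054, 0.053 and 0.052.

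The F test over the 3 pair differences, which asks whether any of them departs from 0, called Id2 (adjusted p = 0.00069) and Id3 (adjusted p = 0.027), where 2.43% of all probe sets were called. With a block for the number it also called Tcf4 (adjusted p = 0.0067, against 0.096 without it), 3 of 6 members where 8.84% of all probe sets were called. The size of the Id3 difference was not shown to vary between pairs. It was -0.53 ± 0.28 for the NKT pair minus the CD8 pair, 0.18 ± 0.31 for the NKT pair minus the B cell pair and 0.71 ± 0.31 for the CD8 pair minus the B cell pair, none of them called.

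**Figure D2:**
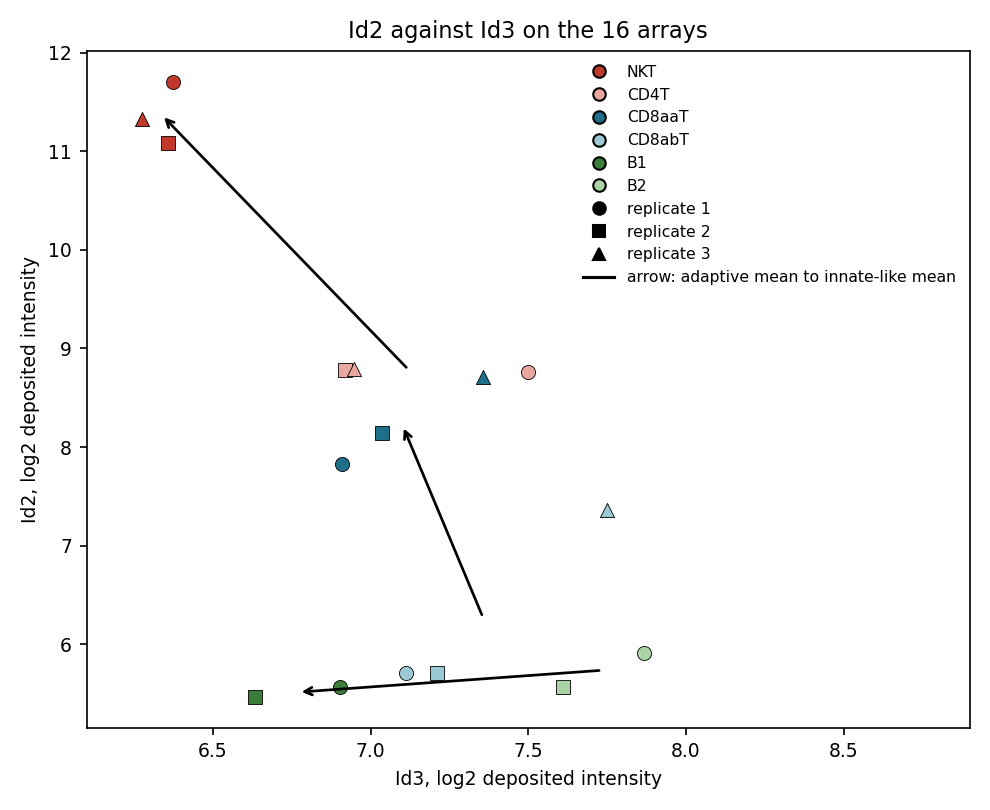
Id2 against Id3 (log2 deposited intensity) on the 16 arrays, coloured by group with symbols for the replicate number; each arrow runs between the means of a pair and ends at the innate-like one. The NKT and CD8aaT arrows point up and to the left, while the B1 arrow points left with a change in Id2 of only -0.22.

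Id2 and Id3 can be read together on each array as log2 Id2 minus log2 Id3, of which only the difference between groups has a meaning because the 2 probe sets are not on 1 scale. This measure was chosen after the values were seen. It was 5.33, 4.73 and 5.05 in NKT, against 1.26, 1.86 and 1.84 in CD4T. It was 0.92, 1.11 and 1.35 in CD8aaT, against -1.40, -1.51 and -0.38 in CD8abT, and -1.34 and -1.17 in B1, against -1.96 and -2.04 in B2. The groups did not overlap in any pair, and the shift toward Id2 was 3.38 in the NKT pair, 2.22 in the CD8 pair and 0.75 in the B cell pair. In the B cell pair the Id3 mean was the part that differed, by -0.97, beside -0.22 for Id2.

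Id1, on chromosome 2 (chr2:152736251-152737410), is used widely outside the lymphoid lineage. Its probe set was dim on every array, at 16.9 to 17.4 in NKT against 15.6 to 20.5 in CD4T, 14.5 to 15.3 in CD8aaT against 15.3 to 19.7 in CD8abT, and 20.9 to 27.5 in B1 against 27.0 to 28.2 in B2. Its rank was between 12.6% and 34.2% of its array, and RMA compresses differences at such levels. Differences were -0.04 ± 0.14, -0.19 ± 0.14 and -0.20 ± 0.17 for NKT, CD8aaT and B1 cells against their partners, none called.

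Tcf4, on chromosome 18 (chr18:69343429-69687967), encodes an E protein used by B cells and plasmacytoid dendritic cells, and is a different gene from Tcf7l2, which shares the older protein name. It measured 40.2, 33.4 and 39.4 in NKT, against 21.5, 25.0 and 28.1 in CD4T, and the groups did not overlap. It measured 14.0, 14.4 and 17.0 in CD8aaT, against 8.02, 11.0 and 12.8 in CD8abT, again without overlap, at levels near the bottom of the arrays. In B cells it measured 566 and 739 in B1, against 424 and 526 in B2, where both B1 values were above both B2 values.

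The differences of Tcf4 were of like size in the 3 pairs, at 0.60 ± 0.18 in NKT cells (adjusted p = 0.21), 0.53 ± 0.18 in CD8aaT cells (adjusted p = 0.61) and 0.45 ± 0.23 in B1 cells, where the 95% confidence interval was -0.03 to 0.94. With a block for the number, the first was called (adjusted p = 0.018), as was the second (adjusted p = 0.048). With an offset of 32 added before log2, the differences fell to 0.29 in NKT and 0.15 in CD8aaT cells. The like size therefore holds only for log2 values without an offset, at levels that were dim in the T cells. Tcf4 was the 1 member with a difference above 0 in all 3 pairs, which 10.6% of all probe sets had. Its called average held in 11 of 24 alternative settings, with adjusted p-values up to 0.16. It was lost with quantile normalization (adjusted p = 0.091), with the beta-actin ratio as a covariate (0.071), without replicate 1 of every group (0.066), and without any 1 of CD4T replicates 1 and 2, NKT replicates 1 and 3, CD8abT replicate 2, CD8aaT replicates 2 and 3, B2 replicates 1 and 2 and B1 replicate 2.

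Tcf12, on chromosome 9 (chr9:71844252-72111893), encodes HEB, an E protein with a main role in thymocytes. It measured 694, 452 and 489 in NKT, against 313, 356 and 464 in CD4T, and the ranges overlapped. In CD8aaT it measured 338, 316 and 318, against 250, 265 and 255 in CD8abT, with no overlap and little spread in either group. B1 cells had 506 and 407, against 569 and 397 in B2 cells. Differences were 0.52 ± 0.19 (adjusted p = 0.41), 0.34 ± 0.19 (adjusted p = 0.89) and -0.07 ± 0.23, none of them called. In NKT and CD4T same-numbered samples differed by 1.15, 0.34 and 0.08, and without replicate 1 of every group the difference was 0.21.

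Tcf3, on chromosome 10 (chr10:80409541-80433976), encodes the E protein required for the B cell lineage, made in alternatively spliced forms that 1 probe set may not tell apart. It was close between the members of each pair, with 177, 116 and 150 in NKT against 193, 144 and 127 in CD4T. It measured 82.3, 65.4 and 74.5 in CD8aaT against 86.7, 77.5 and 84.1 in CD8abT, and 209 and 154 in B1 against 203 and 186 in B2. The groups overlapped in every pair. Differences of -0.07 ± 0.19, -0.16 ± 0.19 and -0.12 ± 0.23 had 95% confidence intervals of -0.47 to 0.34, -0.57 to 0.24 and -0.61 to 0.38, none called.

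Groups that did not overlap were counted for all members. In the NKT pair 3 of 6 members did not overlap (Id2, Id3 and Tcf4), where 12.2% of all probe sets did not. In the CD8 pair 3 of 6 did not (Id2, Tcf4 and Tcf12), where the share was 11.3%. In the B cell pair 3 of 6 did not (Id2, Id3 and Tcf4), beside 32.3% of all probe sets, and the gap for Id2 was very small there. Id1, Id3 and Tcf3 had differences below 0 in all 3 pairs, as did 27.2% of all probe sets.

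**Figure D3:**
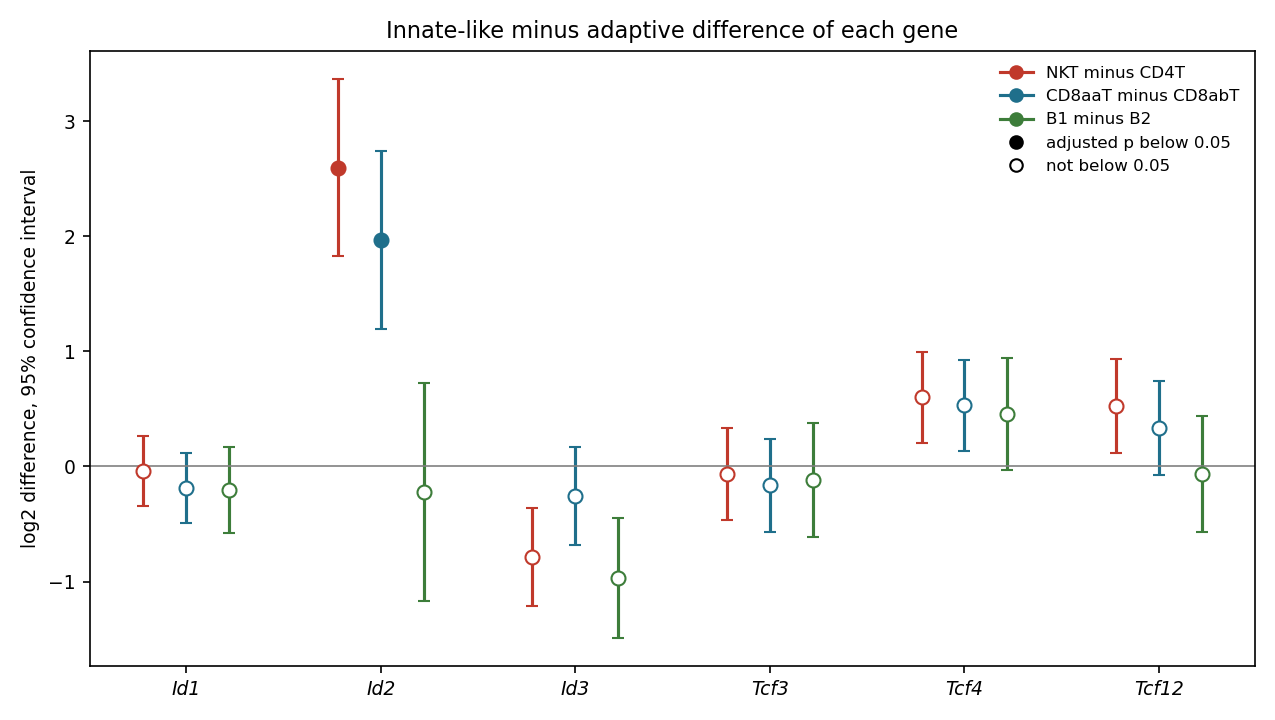
Innate-like minus adaptive log2 difference of each gene in the 3 pairs, with 95% confidence intervals of the fit over all 16 arrays; filled points passed the adjusted threshold of 0.05. Only the 2 T cell differences of Id2 (2.60 and 1.97) are filled, Id3 lies below 0 and Tcf4 above 0 in every pair.

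The balance of Id genes to E protein genes was taken on each array as the mean log2 value of Id1, Id2 and Id3 minus that of Tcf3, Tcf4 and Tcf12, and only its differences are read. It was 0.11 ± 0.14 in NKT and -0.13 ± 0.22 in CD4T (SD, n = 3 each), a difference of 0.24 with overlapping samples (0.41 without replicate 1). It was 0.26 ± 0.21 in CD8aaT and -0.02 ± 0.31 in CD8abT (SD, n = 3 each), a difference of 0.27, again with overlap. It was -2.93 ± 0.09 in B1 and -2.37 ± 0.05 in B2 (SD, n = 2 each), a difference of -0.56 without overlap. Same-numbered samples differed by -0.11, 0.43 and 0.40 in the NKT pair, by 0.13, 0.57 and 0.12 in the CD8 pair and by -0.53 and -0.59 in the B cell pair. The sign was thus shared by all numbers in the CD8 and B cell pairs, and in the NKT pair replicate 1 had the other sign from replicates 2 and 3, whose NKT values (0.26 and 0.08) lay above the CD4T values (-0.17 and -0.32).

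The parts of the score show how this came about. The Id mean differed by 0.59 in NKT, 0.51 in CD8aaT and -0.47 in B1 cells against their partners, while the E protein mean differed by 0.35, 0.23 and 0.09. Leaving out the dim Id1, whose equal weight in the score shrinks a difference of Id2, changed the balance differences to 0.55, 0.62 and -0.69. Tcf4 also lay below the middle of the T cell arrays, with mean ranks of 14.0% in CD8abT to 41.8% in NKT. It kept its equal weight in the E protein mean, and no score without it was made. The score without Id1 was 1.63, 1.81 and 1.65 in NKT, against 1.36, 1.09 and 0.98 in CD4T, with no overlap. It was 1.18, 1.53 and 1.83 in CD8aaT, against 0.61, 0.53 and 1.53 in CD8abT, which overlapped through CD8abT replicate 3. In B cells it was -2.38 and -2.44 in B1, against -1.63 and -1.82 in B2, with no overlap. Because each gene counts equally here and RNA abundance per gene is not measured by an array, the score does not give a ratio of molecules.

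**Figure D4:**
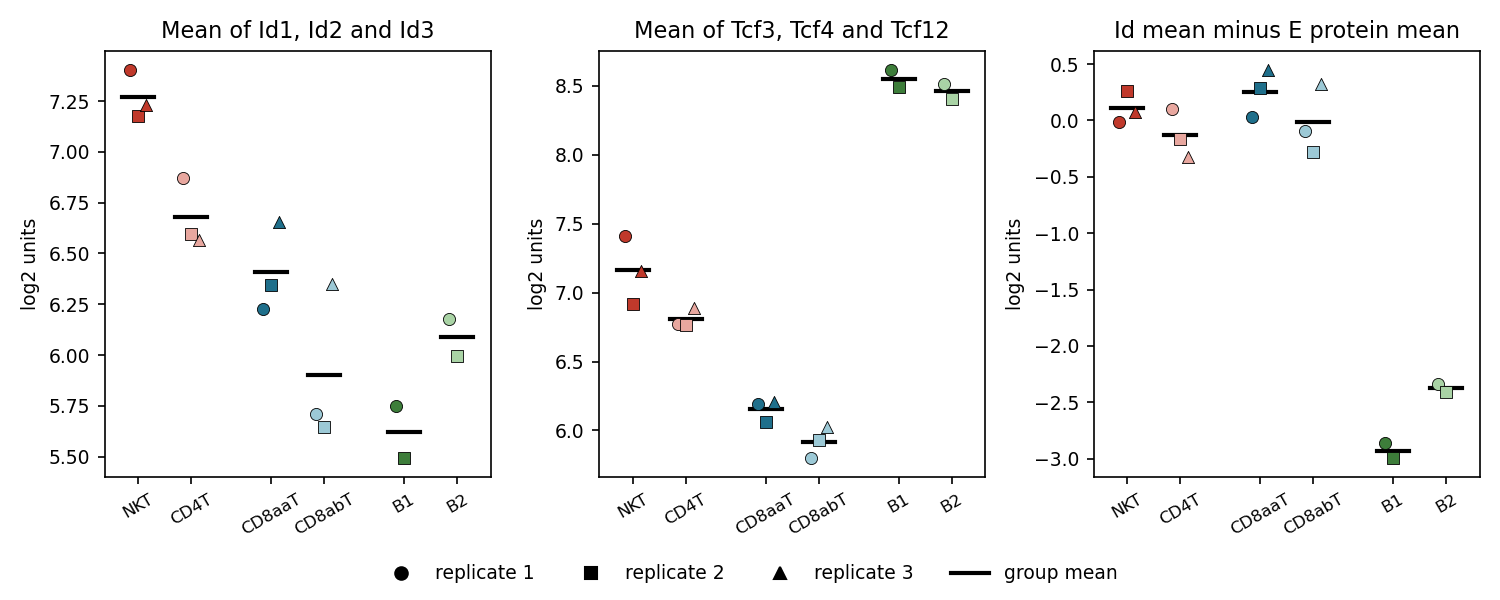
Mean log2 intensity of the 3 Id genes (left), of the 3 E protein genes (middle) and their difference (right) on each array, by group; symbols give the replicate number and bars the group mean. The balance overlaps within both T cell pairs and is lower in B1 (-2.93) than in B2 (-2.37); axes do not start at 0.

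Across all 6 groups the genes had different orders by rank on the array. Id2 ranked at 99.4% in NKT, 93.7% in CD4T, 93.5% in CD8aaT, 73.2% in CD8abT, 39.7% in B2 and 36.5% in B1, where CD4T and CD8aaT overlapped, as did B2 and B1. Id3 followed the order CD8abT, CD8aaT, B2, CD4T, B1 and NKT, with mean ranks of 88.4%, 85.1%, 78.9%, 75.7%, 62.2% and 62.0%. CD8abT and CD8aaT overlapped there, as did B2 and CD4T, and B1 and NKT. So NKT cells had the highest rank of Id2 and the lowest mean rank of Id3 among the 6 populations.

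The E protein genes divided by lineage in 1 case. Tcf4 ranked at 94.3% in B1 and 91.8% in B2, and at 41.8% in NKT, 29.9% in CD4T, 27.8% in CD8aaT and 14.0% in CD8abT, where CD4T and CD8aaT overlapped. Tcf12 ranked between 90.9% and 94.5% on average in every group, in the order NKT, CD8aaT, CD8abT, CD4T, B2 and B1. Of its neighbours in that order, CD8aaT and CD8abT were separate and the others overlapped. Tcf3 averaged between 73.3% and 77.7%, with overlap between all neighbours in the order CD4T, B2, CD8abT, NKT, B1 and CD8aaT. Id1 averaged 31.1% in CD8abT, 27.6% in CD8aaT, 20.0% in B2, 19.7% in CD4T, 19.6% in NKT and 16.03% in B1, and the last 4 of these overlapped with their neighbours.

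For each member, the genes most alike were sought by Pearson correlation over the 16 arrays after the mean of each pair was taken out, as a description over arrays that share groups and depth of signal. Id2 was most like AW112010 (r = 0.97), Klrd1, which encodes the natural killer receptor chain CD94 (r = 0.97), and Ccl5, a chemokine of effector T cells (r = 0.93). Klrd1 and Ccl5 lay at 2.69 and 3.10 in NKT, 2.20 and 2.84 in CD8aaT, and -0.28 and -0.43 in B1 cells against their partners. AW112010 lay at 1.62, 1.10 and 0.03. The likened genes of every member were picked by a measure that includes these differences, so a shared pattern follows from the choice. Id3 was most like the kinase gene Sgk1 (r = 0.89), Timeless (r = 0.88) and Gm11346 (r = 0.87), with Sgk1 at -1.74, -0.21 and -1.24 in the 3 pairs.

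The E protein genes had other partners. Tcf4 was most like Tnfrsf1b, a receptor for tumor necrosis factor (r = 0.90), Vkorc1 (r = 0.89) and Itm2c (r = 0.87), and Tnfrsf1b lay at 0.84, 0.55 and 0.57 in NKT, CD8aaT and B1 cells against their partners. Tcf12 was most like Rnf181 (r = 0.90), Sec13 (r = 0.87) and Psph (r = 0.84). For Id1 (Tead3, Ddx24 and Lypd8, r = 0.94 to 0.91) and Tcf3 (Htr4, Rcc2 and Ccnd1, r = 0.93 to 0.92), pair differences of the likened genes ran from -0.274 to -0.0055.

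Other genes of the pathway were read from 5 lists. Of 9 further helix-loop-helix factors measured (11 listed), 1 was called, Bhlhe40, a repressor that binds E-box-like sites. It was higher in NKT cells by 2.26 ± 0.29 (adjusted p = 0.00055), with log2 means of 7.55 ± 0.39 in NKT and 5.29 ± 0.50 in CD4T (SD, n = 3 each). The list's median difference was -0.04 in NKT, -0.10 in CD8aaT and -0.12 in B1 cells against their partners, beside -0.03, -0.05 and -0.05 over all probe sets, and no factor on it was called, or had an unadjusted p under 0.05, in the last 2 pairs. Id4, the remaining Id gene, was at -0.04 ± 0.19, -0.17 ± 0.19 and -0.12 ± 0.24.

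Of 8 cofactors of helix-loop-helix factors measured (9 listed), Lmo4, a LIM-only adaptor, was higher in NKT cells (1.17 ± 0.19, adjusted p = 0.0039), and none was called in CD8aaT cells, nor had an unadjusted p under 0.05. With only the arrays of its pair in the fit Lmo4 was not called (adjusted p = 0.11). In B1 cells 1 was higher and 1 lower. The lower one was Lmo2, a LIM-only bridge between helix-loop-helix and GATA factors, at log2 means of 7.94 ± 0.27 in B1 and 9.91 ± 0.09 in B2 (SD, n = 2 each), a difference of -1.97 ± 0.14 (3.92-fold lower, adjusted p = 3.0e-06). Its other, dimmer probe set was at -0.60 ± 0.23 (adjusted p = 0.66). The higher one was Cbfa2t3, a corepressor that E proteins can recruit, at 1.31 ± 0.16 (adjusted p = 0.00036), while its other probe set was at -0.03 ± 0.18, and with only the arrays of the pair its adjusted p was 0.084. The list medians were 0.05, -0.04 and -0.13.

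Of 11 genes acting upstream of Id genes measured (12 listed: EGR factors, SMADs, receptors of the TGF-beta and BMP families and STAT factors), none was called in any pair by limma, and 1, 2 and 1 had an unadjusted p under 0.05 in the NKT, CD8 and B cell pairs. With a block for the number, Smad4 was lower in NKT cells (-0.65 ± 0.17, adjusted p = 0.0048). The list medians were -0.06 in NKT, -0.05 in CD8aaT and -0.11 in B1 cells against their partners.

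Of 10 E protein targets of developing T cells measured (12 listed), 1 was called, Dntt, the terminal transferase that adds bases to antigen receptor joints. It was lower in NKT cells (-0.71 ± 0.17, adjusted p = 0.049), and of its other probe sets 1 was lower (-0.67, adjusted p = 0.018) and the dimmest was at -0.24, not called. The call of the brightest probe set was kept in 8 of 25 alternative settings, and leaving out any 1 array other than the 3 CD8abT arrays ended it. In the blocked fit Gfi1, a repressor of T cell and myeloid genes, was higher in NKT cells (1.51 ± 0.40, adjusted p = 0.00076). In CD8aaT cells the block called Il7r, the interleukin 7 receptor chain, higher (1.71 ± 0.41, adjusted p = 0.011) and Notch1 lower (-0.71 ± 0.17, adjusted p = 0.024). Without the block these 3 had adjusted p-values of 0.11, 0.18 and 0.22, and the other, dimmer probe set of Notch1 was at -0.21 (adjusted p = 0.91). The list medians were -0.02, -0.17 and -0.10.

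Of 8 E protein targets of B cells measured (12 listed), none was called in any pair by limma, and 0, 0 and 2 had an unadjusted p under 0.05. The list medians were -0.07, 0.03 and -0.21 in the NKT, CD8 and B cell pairs. Summed intensities of these 8 were 6771 to 7538 in B1 and 8111 to 8253 in B2. Pax5, the B cell commitment factor, was at -0.72 ± 0.29 in B1 cells (adjusted p = 0.77) for its brighter probe set. Its dimmer probe set was at -0.20 ± 0.15, not called.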

How the data were processed

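RNA of sorted cells was isolated with TRIZOL, amplified and labelled with biotin, per the labels' protocols, and hybridised to 16 single-colour arrays. The intensity values deposited by the authors are on a linear scale and were made with RMA, per the submitters' processing notes. The labels state neither the RMA version nor which arrays it was run on together. Of 12488 probe sets, 66 controls were left out and no filter on dim ones was applied. The platform annotation gave 1 symbol to 10833 of the rest, several to 396 and listed none for 1193. All 6 members matched RefSeq (GRCm38.p6) by Entrez number, and 4 of 6 have an upstream sequence in the table used.

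Groups came from sample titles. log2 intensities were fitted with limma 3.58.1 in R 4.3.3 (lmFit, eBayes, two-sided, 6 group means, all 16 arrays), tested on simulated data first, with Benjamini-Hochberg adjustment over 12422 probe sets and a threshold of 0.05. The replicates are described as biological without saying whether from separate animals, so p-values rest on the spread of these samples only, which may be technical. At most 1 probe set had equal values on replicate arrays of a group. Replicate numbers were taken to pair the T cell samples, because deviations of same-numbered arrays correlated at 0.76, 0.65 and 0.67 in NKT and CD4T and 0.64, 0.60 and 0.66 in CD8aaT and CD8abT, above 0.1. This pairing comes from the data, not from a label. Arrays with different numbers were not compared, so the check does not show that the numbers mark true pairs. In NKT and CD4T, pairing cannot be told apart from replicate 1 standing apart in both groups. All blocked p-values depend on this pairing. In B1 and B2, 2 pairs (0.69) are too few to judge a pairing. The blocked fit still held a block there. Blocked values that involve the B cell pair, the blocked F test among them, therefore rest on a pairing that was not established.

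Members are all genes of the rule. Pathway and marker lists came from textbook knowledge, and only their called genes are named, the brightest probe set by mean log2 standing for a gene. Id4, the remaining Id gene, and Ncr1 were singled out, and the blocked calls and Pax5 added, after values were seen. Members and lists were chosen with earlier results of these data known. Alternatives were median centring, quantile normalization, an offset of 32, leaving out dim probe sets, arrays of the pair only, the replicate block, trend and robust eBayes, the beta-actin ratio as a covariate, and leaving out replicate 1 or each array.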

Additional observations from a re-analysis of the deposited data

Results flagged for a closer look

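The values below are differences between pairs, that is, the innate-like minus adaptive difference of one pair minus that of another, that passed limma's adjusted threshold of 0.05. Id2, whose product sequesters E proteins, differed by 2.82 ± 0.57 between the NKT pair and the B cell pair (adjusted p = 0.020), and the call was kept in 16 of 24 alternative settings. It was lost without replicate 1 of every group and without any 1 of CD4T replicates 2 and 3, NKT replicate 3 and all 4 B cell arrays, where adjusted p-values reached 0.21. Between the same pairs Bhlhe40 differed by 2.69 ± 0.46 (adjusted p = 0.0072) and Lmo4 by 1.52 ± 0.30 (adjusted p = 0.019). Lmo2 differed by 2.01 ± 0.18 between the NKT and B cell pairs (adjusted p = 2.5e-05) and by 1.82 ± 0.18 between the CD8 and B cell pairs (adjusted p = 0.00014), its pair difference being -1.97 in B1 cells. Cbfa2t3 differed by -1.01 ± 0.20 between the NKT and B cell pairs (adjusted p = 0.021) and by -1.09 ± 0.20 between the CD8 and B cell pairs (adjusted p = 0.022), from 1 of its 2 probe sets. Bhlhe40, Lmo4, Lmo2 and Cbfa2t3 were looked at here because they had been called in a single pair on the same arrays. Their differences between pairs partly repeat that choice and are not separate results.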

How the results depend on the processing

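Every member kept its direction except near 0. Id1 in the NKT pair was 0.057 without replicate 1 of every group and -0.13 to 0.072 with 1 array left out. Tcf12 in the B cell pair was 0.03 and -0.33 to 0.19 under the same settings. Tcf3 was 0.044 in the CD8 pair with the beta-actin covariate, and with 1 array left out -0.21 to 0.10 in the NKT pair and -0.34 to 0.10 in the B cell pair. In the NKT pair 202 probe sets were called, and 601 under the replicate block, 356 without replicate 1 of every group and 134 to 242 with 1 array left out; members called were 2 with median centring, 3 with the block and 1 to 2. In the CD8 pair 23 were called, and 9 with the offset, 41 without dim probe sets, 2 with arrays of the pair only, 398 with the block, 190 without replicate 1, 11 with the covariate and 10 to 57 with 1 array left out. Its members called were 2 with the block, 0 to 1 with 1 array left out, and 0 with quantile normalization, the offset, arrays of the pair only, the covariate or no replicate 1. In the B cell pair 142 were called, and 214 with the offset, 50 with arrays of the pair only, 353 with the block, 227 without replicate 1 and 64 to 164 with 1 array left out, with 1 member (Id3, adjusted p = 0.0034) under the block and 0 to 1 otherwise. Id3 was also called without CD8abT replicate 3 in the NKT pair (adjusted p = 0.035) and in the B cell pair (0.042), with median centring in the NKT pair (0.038), and without CD4T replicate 1 in the B cell pair (0.041). Without replicate 1 of every group, 0 members were called in the average, 1 by the F test (3 with the block) and 0 in differences between pairs, and 1 to 3, 1 to 3 and 0 to 1 with 1 array left out. Balance differences were 0.55, 0.62 and -0.69 without Id1, -0.43 in B cells with the offset, and 0.14 to 0.35, 0.14 to 0.44 and -0.62 to -0.49 with 1 array left out. The block changed no other member's call than those printed, and in the B cell pair it rests on a pairing that was not established. Where an alternative leaves out arrays or other groups, fewer samples enter the fit; the cause of other changes was not tested. Without dim probe sets Id1 was not tested. Averaging several probe sets of a member was not run, since each had 1.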
